A study of Rattus norvegicus with 10 samples.

Results

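The MHC class II genes of rat pancreatic islets were read from 14 probesets, groups of short probes on an Affymetrix Rat Genome 230 2.0 array, among 31042 probesets in all. They belong to 8 genes: RT1-Da, RT1-Db1, RT1-Ba, RT1-Bb, RT1-DMa, RT1-DMb, Cd74 and Ciita. A probeset was taken when the platform annotation gave it 1 gene symbol equal to one of these names, so no measured value entered this rule. The genes themselves were chosen with earlier results of these data known. All 8 genes were found.

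Islets, freed with collagenase and purified by gradient and hand-picking, came from male Wistar rats that had eaten a cafeteria diet, with 66% of calories as fat, or standard chow, with 8%, for 10 days. The rats were 7 weeks old, weighed 225 to 250 g and were caged singly, and each diet was measured on 5 arrays, 1 independent sample to an array. Total RNA of whole islets was used, so fewer cells of a type and less RNA per cell cannot be told apart. Groups follow the array titles. In all 10 samples the diet characteristic states the opposite diet from the title, source name and description, and if it were right every sign below would turn. Values are MAS5 signals, a linear brightness that the authors had scaled to a common mean on every array. No detection calls came with them.

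MHC class II molecules are pairs of an alpha and a beta chain that show peptides from swallowed proteins to CD4 T cells. Dendritic cells, macrophages and B cells carry them, and islets hold resident macrophages. In the rat the locus is called RT1: RT1-Da and RT1-Db1 encode the chains of the D molecule, the counterpart of human HLA-DR, and RT1-Ba and RT1-Bb those of the B molecule, the counterpart of HLA-DQ. Cd74, the invariant chain, fills the groove of new molecules. RT1-DMa and RT1-DMb form DM, which swaps the last fragment of the invariant chain for a peptide. Ciita is the co-activator that switches the whole set on, through proteins bound to the X box and Y box of each promoter.

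The stretch of promoter that holds these boxes is shown because these boxes are how Ciita is known to reach the class II genes. RefSeq sequences of assembly GRCr8 were found for 6 of the 8 genes, as windows from 250 bases before to 50 bases after the gene start. Each line reads 5′ to 3′ along the gene. Capitals mark ACNGATG, letters from within the X box. They also mark ATTGG, the core of the Y box that the factor NF-Y recognises, or its reverse complement CCAAT.
RT1-Da (chr20:4515321-4515382, plus strand): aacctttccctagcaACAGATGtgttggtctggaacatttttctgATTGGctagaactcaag
RT1-Db1 (chr20:4560226-4560286, minus strand): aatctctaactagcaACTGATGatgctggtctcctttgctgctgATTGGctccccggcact
RT1-Bb (chr20:4604163-4604223, minus strand): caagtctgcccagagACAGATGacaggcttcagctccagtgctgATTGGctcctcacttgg
RT1-DMa (chr20:4712383-4712444, minus strand): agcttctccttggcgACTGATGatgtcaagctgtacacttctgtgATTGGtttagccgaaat
RT1-Ba (chr20:4576954-4577030, plus strand): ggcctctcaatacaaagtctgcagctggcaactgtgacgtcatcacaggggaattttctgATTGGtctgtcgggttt
Cd74 (chr18:56526987-56527071, plus strand): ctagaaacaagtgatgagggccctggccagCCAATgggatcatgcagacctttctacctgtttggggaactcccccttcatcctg

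The letters were chosen after these promoters had been seen, so the counts describe them and test nothing. Searched on both strands, ATTGG was in 6 of the 6 windows, and in 37.5% of 33469 RefSeq promoters of the same length. The longer form CTGATTGG, which overlaps it, was in 4 of 6 (RT1-Da, RT1-Db1, RT1-Ba and RT1-Bb), against 3.50% of all. ACNGATG was in 4 of 6 (RT1-Da, RT1-Db1, RT1-Bb and RT1-DMa), against 10.2% of all. In those 4 promoters the X box letters stood 22 or 23 bases before the Y box core. ACNGATG followed 10 to 30 bases later by ATTGG on the same strand was found in 53 of the 33469 promoters (0.158%), which include these 4. A match of letters is not evidence of binding, and RT1-Ba and Cd74 lacked these X box letters in this window.

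In every class II gene, the log2 range of the arrays within each diet was wider than the difference between the diet means. A range is wider than an SD, so this does not show whether rats or diets differed more. Of the 8 genes, 7 had a lower mean log2 value in the cafeteria group and 1, RT1-Bb, a higher one, with a median log2 difference of −0.48 against 0.0056 over all 18625 probesets tested. No member passed the test: 0 of 13 tested member probesets had a limma adjusted p under 0.05, as did 0.00% of all tested probesets (lowest adjusted p of all, 0.172). At an unadjusted p under 0.05, 1 member probeset was lower and 0 were higher, against a background of 4.91% lower and 5.51% higher. Mean log2 values were lower in the cafeteria group for 11 of the 13 and higher for 2, while 48.6% of all tested probesets were lower. In 0 of the 13 did all cafeteria arrays lie below all standard arrays, which 1.45% of tested probesets did. The remaining probeset, a dim one of RT1-Db1, fell under the filter on low signals.

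RT1-Da, the alpha chain of the D molecule, was read by 1 probeset. Its signal was 784, 623, 1913, 782 and 936 in cafeteria replicates 1 to 5, and 2189, 737, 1635, 1479 and 2729 in standard replicates 1 to 5. The groups overlapped through 2 arrays: cafeteria replicate 3 read as high as the standard arrays, and standard replicate 2 as low as the cafeteria arrays. Means were 1008 ± 518 in the cafeteria group and 1754 ± 752 in the standard group (SD, n = 5 each). The log2 difference was −0.78 (SE 0.361, 95% confidence interval −1.58 to 0.010; adjusted p = 0.480).

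RT1-Db1, the beta chain that pairs with it, had the same order of arrays at both ends. Its brighter probeset read 333, 255, 764, 382 and 381 in the cafeteria arrays, and 824, 314, 676, 639 and 1016 in the standard arrays. Cafeteria replicate 3 again stood among the standard arrays and standard replicate 2 among the cafeteria arrays. The log2 difference was −0.70 (SE 0.325; adjusted p = 0.480). By its suffix this probeset holds probes that several transcripts can share, and RT1-Db2 lies between RT1-Da and RT1-Db1 on the chromosome, so part of its signal may come from that gene. The probeset under the filter read 7.04 to 163 in the cafeteria group and 26.6 to 160 in the standard group, with wide overlap. Fitted without a filter, its log2 difference was −0.51 (SE 0.597; adjusted p = 0.836).

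Cd74, the invariant chain, had a signal of 1676, 2160.0, 6731, 2439.6 and 2610.0 in cafeteria replicates 1 to 5. In standard replicates 1 to 5 it was 6811, 1865, 5154, 3773 and 7280.4. Cafeteria replicate 3 was thus within the range of the standard arrays and well above the other cafeteria arrays, and standard replicate 2 was below 4 of the 5 cafeteria arrays. The group means were 3123 ± 2047 for cafeteria and 4977 ± 2227 for standard (SD, n = 5 each), a log2 difference of −0.70 (SE 0.422, 95% confidence interval −1.63 to 0.22; adjusted p = 0.555).

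**Figure D1:**
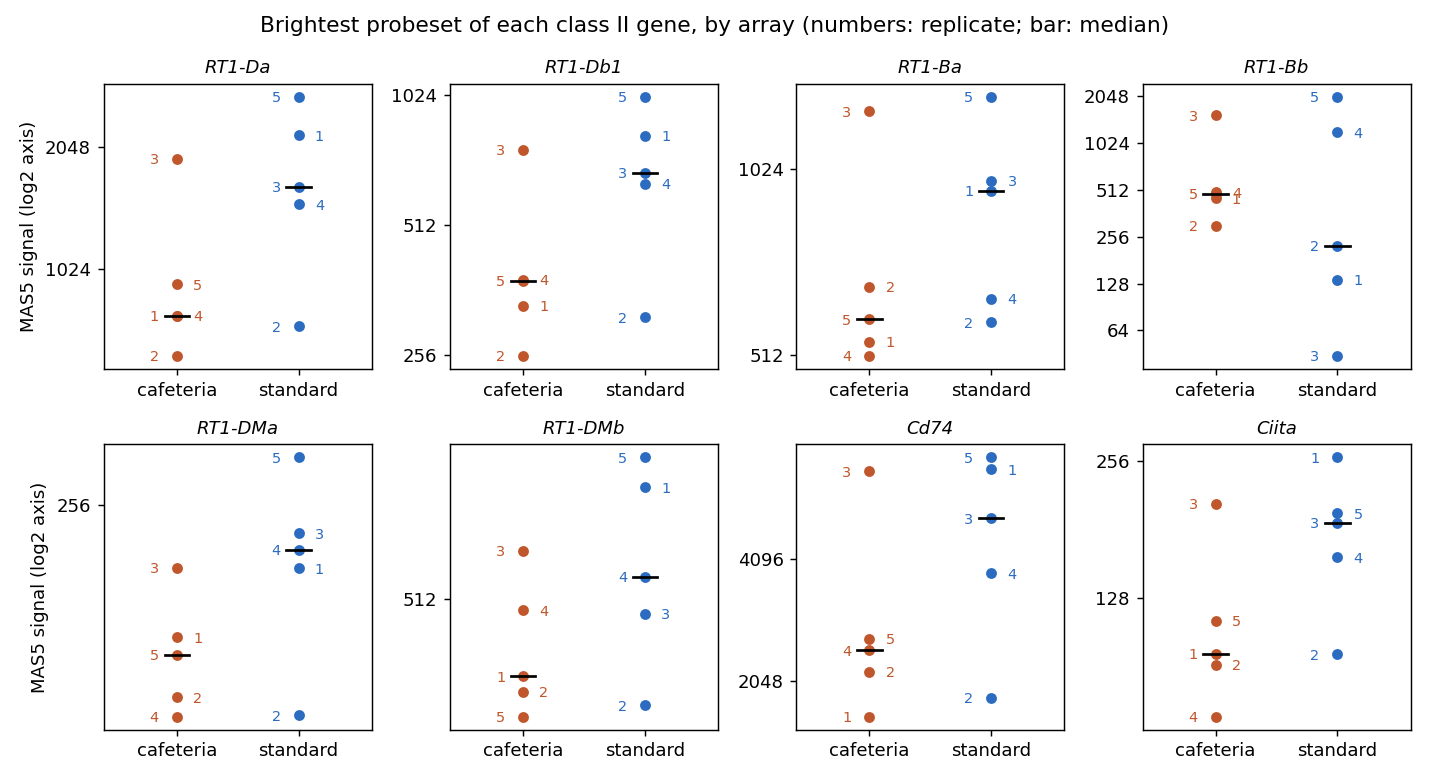
MAS5 signal (log2 axis) of the brightest probeset of each of the 8 class II genes on the 5 cafeteria arrays (left) and the 5 standard arrays (right); each point is an array, numbered by replicate, and the bar is the group median. In RT1-Da, RT1-Db1, RT1-DMa, Cd74 and Ciita, cafeteria replicate 3 lies among the standard arrays and standard replicate 2 among the cafeteria arrays, and RT1-Bb shows another order.

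Ciita, the co-activator, was dim but ordered alike. The brighter of its 2 probesets read 96.5, 91.4, 206, 70.4 and 114 in the cafeteria arrays, and 261, 96.5, 188, 157 and 197 in the standard arrays. Cafeteria replicate 3 was the second highest of all 10 arrays, and standard replicate 2 the lowest standard array. The log2 difference was −0.60 (SE 0.276; adjusted p = 0.480). The other probeset gave the lowest p of all members: −0.76 (SE 0.244; unadjusted p = 0.00977, adjusted p = 0.412). There the signal was 112, 43.2, 114, 63.1 and 53.4 in the cafeteria arrays, and 115, 155, 177, 92.4 and 136 in the standard arrays. Here standard replicate 2 was the second highest array, unlike in the brighter probeset, so the 2 probesets shared their direction but not their order. This probeset lay at percentile 40.7 of mean log2 signal, just above the filter at the 40th.

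The DM genes, whose product loads peptides, had the smallest standard errors of the members. RT1-DMa read 192, 168, 223, 162 and 185 in the cafeteria arrays, and 223, 162, 241, 232 and 284 in the standard arrays. Its log2 difference was −0.27 (SE 0.137; adjusted p = 0.514), with cafeteria replicate 3 and standard replicate 2 again the arrays that made the groups overlap. RT1-DMb read 401, 382, 597, 494 and 353 in the cafeteria arrays, and 729.6, 366, 489, 549 and 802 in the standard arrays. It differed by −0.36 (SE 0.212; adjusted p = 0.550), and here cafeteria replicates 3 and 4 both lay above standard replicate 3.

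RT1-Ba, the alpha chain of the B molecule, had 4 tested probesets that did not share 1 direction. The brightest read 537, 659.7, 1272, 509 and 584 in the cafeteria arrays, and 944, 578, 981, 631 and 1343 in the standard arrays. Standard replicates 2 and 4 lay among the cafeteria arrays and cafeteria replicate 3 among the standard ones, and the log2 difference was −0.34 (SE 0.280; adjusted p = 0.667). A further probeset, 1377334_at, differed by −0.93 (SE 0.430; adjusted p = 0.480). It read 268 to 696 in the cafeteria arrays, against 2053 and 997 in standard replicates 1 and 3 and 397 to 559 in the other standard arrays. Probeset 1392334_at ran the other way (0.21, SE 0.379; adjusted p = 0.864), with 179 to 282 in the cafeteria arrays, and in the standard arrays 55.2 and 161 in replicates 4 and 5 and 278 to 321 in replicates 1 to 3. The last, 1381593_x_at, differed by −0.27 (SE 0.381; adjusted p = 0.817), and its suffix marks probes that may bind unrelated transcripts.

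**Figure D2:**
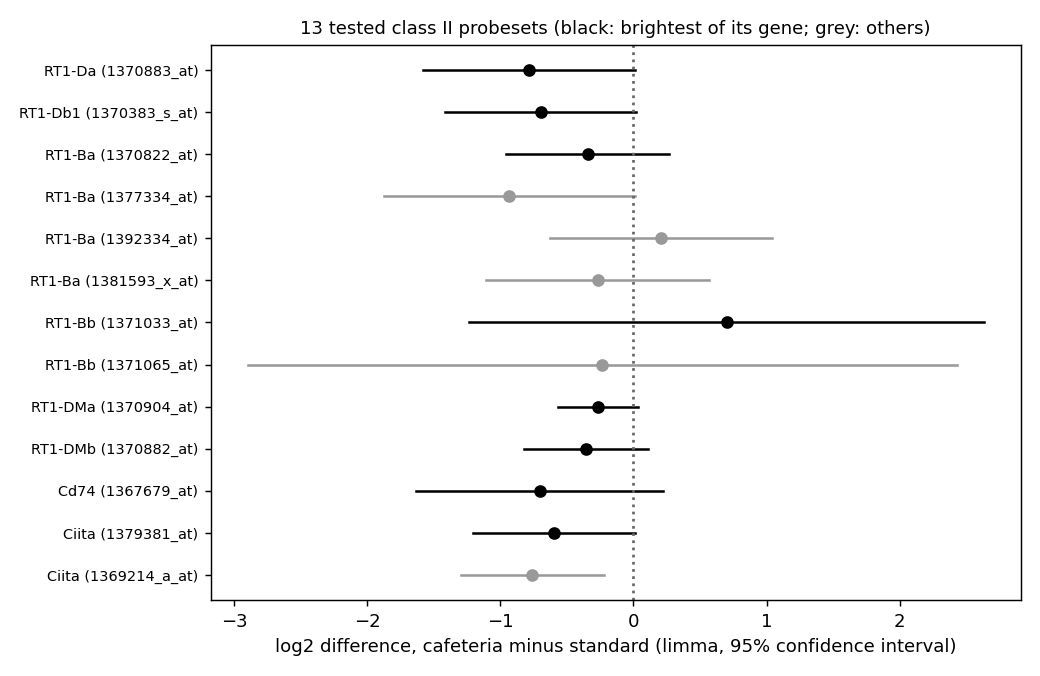
Log2 difference, cafeteria minus standard, with its 95% confidence interval from limma, for the 13 tested class II probesets; black marks the brightest probeset of a gene and grey the others. Of the points, 11 lie below 0 and 2 above, and 1 interval, that of the dimmer Ciita probeset (−1.30 to −0.22), leaves out 0.

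RT1-Bb, the beta chain of the B molecule, was the gene whose mean log2 value was higher in the cafeteria group when read from its brightest probeset, and its 2 probesets ran against each other in the standard arrays. Probeset 1371033_at read 453, 301, 1554, 496 and 485 in cafeteria replicates 1 to 5, and 136, 224, 43.8, 1206 and 2045 in standard replicates 1 to 5. Probeset 1371065_at read 98.0, 259, 96.7, 166 and 84.9 in the cafeteria arrays, and 1417, 283, 1072, 2.06 and 4.04 in the standard arrays. In standard replicates 4 and 5 the first probeset was bright and the second near 0, and in standard replicates 1 and 3 the second was the brighter. The mean signal of the first was 658 ± 507 in the cafeteria group and 731 ± 871 in the standard group (SD, n = 5 each), so the linear mean was lower while the mean log2 value was higher. The log2 differences were 0.70 (SE 0.878; adjusted p = 0.788) and −0.23 (SE 1.21; adjusted p = 0.954), with the widest intervals of all members.

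The split of the RT1-Bb probesets ran along with that of RT1-Ba, its neighbour on the chromosome. Standard replicates 1 and 3, where 1371065_at of RT1-Bb was highest, were also the 2 arrays highest in 1377334_at of RT1-Ba. Standard replicates 4 and 5, where it was near 0, were the 2 arrays lowest in 1392334_at of RT1-Ba. As background, RT1-Ba and RT1-Bb are among the genes that vary most between rats, and Wistar rats are an outbred stock. The rats' RT1 genotypes were not analysed here, and their part in the split was not tested.

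Added together, the 2 RT1-Bb probesets followed the other class II genes. Their summed signal was 551, 559, 1651, 662 and 569.5 in the cafeteria arrays, and 1553, 507, 1116, 1208 and 2049 in the standard arrays. Cafeteria replicate 3 was then the second highest array and standard replicate 2 the lowest, as in RT1-Da within 1 rank. The sum averaged 799 ± 479 in the cafeteria group and 1287 ± 569 in the standard group (SD, n = 5 each), and the log2 difference turned to −0.69 (SE 0.384; adjusted p = 0.531). The sum was chosen after the values had been seen, and signals of different probesets need not be on 1 scale.

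**Figure D3:**
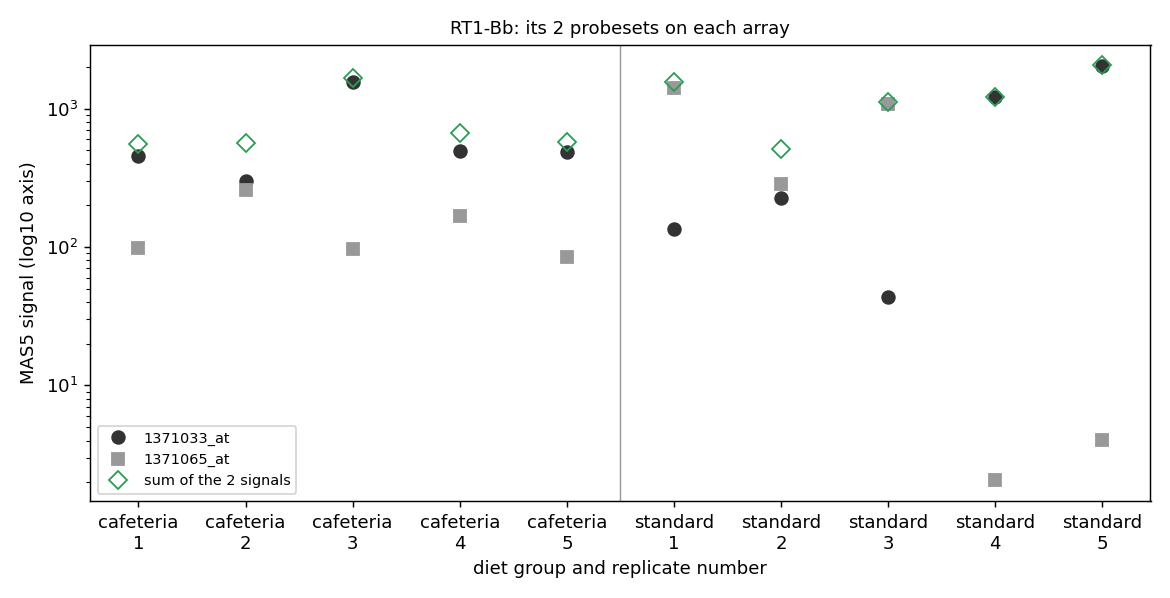
MAS5 signal (log10 axis) of the 2 RT1-Bb probesets and of their sum on each array, cafeteria arrays left of the line and standard arrays right of it. In standard replicates 4 and 5 probeset 1371065_at reads 2.06 and 4.04 while 1371033_at reads 1206 and 2045, and in standard replicates 1 and 3 their order is turned.

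Most members followed Cd74 from array to array, and RT1-Bb read from its brightest probeset did not. Over the 10 arrays, 16 correlations with Cd74 were computed, 15 of them planned, with two-sided permutation p-values adjusted over the 16. RT1-Da followed Cd74 with a Pearson r of 0.963 (permutation p = 0.00013, adjusted 0.000693) and a Spearman rho of 0.915 (permutation p = 0.0006, adjusted 0.00192). Without the 2 arrays farthest from the median of Cd74 (standard replicates 1 and 5) r was 0.942, and after the diet means were removed it was 0.959. RT1-Db1, RT1-Ba, Ciita, RT1-DMb and RT1-DMa had r of 0.957, 0.911, 0.919, 0.880 and 0.844, each with an adjusted permutation p of at most 0.00718 (rho 0.733 to 0.939, adjusted permutation p at most 0.0332). RT1-Bb had r of 0.168 (permutation p = 0.64, adjusted 0.788) and rho of 0.285 (permutation p = 0.427, adjusted 0.488). The sum of its 2 probesets, added after the values had been seen, had r of 0.967 (permutation p = 7e-05, adjusted 0.00056).

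The arrays highest in the members were not the same for all 8. In RT1-Da, RT1-Db1, RT1-DMa, Cd74 and Ciita, the 5 highest arrays were cafeteria replicate 3 and standard replicates 1, 3, 4 and 5, as in 1.13% of all tested probesets (211 of 18625). In RT1-Ba, RT1-Bb and RT1-DMb they were not. In RT1-Da, log2 values were 9.31 to 9.89 on the 5 lower arrays and 10.54 to 11.42 on the 5 higher, a gap of 0.65 that was larger than any other between neighbouring arrays. The gap at that place was the largest also in RT1-Db1 (0.72), Cd74 (0.53) and Ciita (0.42), and not in RT1-DMa (0.20), RT1-Bb (0.096), RT1-Ba (0.064) or RT1-DMb (0.017). The correlations of these genes thus rest in part on a difference between 5 low and 5 high arrays, and with under 6 arrays in each no correlation was computed within them.

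The genes whose pattern was most like that of the members, over 10 arrays after the diet means were removed, were sought among 10293 other genes. The 10 with the highest Pearson correlation with the members' mean (0.938 to 0.987, given as a measure of likeness) were Pou2af1, Cr2, Cd37, Ighvl1, Septin6, Ifi30, Cxcl13, Ltb, Lyz2 and Dnase1l3. Pou2af1 is a transcriptional co-activator of B cells, Cr2 a complement receptor of B cells and follicular dendritic cells, and Cxcl13 a chemokine that draws B cells. Not all of them are B cell genes: in the lists used below, Lyz2 is a macrophage and dendritic cell marker and Ifi30 a processing partner. In all 10, cafeteria replicate 3 was the highest cafeteria array and standard replicate 2 the lowest standard array, as in the members' mean by which they were chosen. Cr2 read 46.8, 15.2, 676, 31.4 and 44.0 in the cafeteria arrays, and 579.6, 22.6, 339, 182 and 843 in the standard arrays. Cxcl13 read 56.3, 72.4, 972, 37.4 and 32.8 in the cafeteria arrays, and 967, 35.4, 176, 397 and 1121 in the standard arrays. The 10 genes differed between the diets by −1.73 (Cr2) to −0.15 (Ifi30) on the log2 scale, and none passed (adjusted p 0.497 to 0.789).

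Markers of white blood cells moved with the class II genes. Of 8 pan-leukocyte markers 7 were tested and all 7 were lower in the cafeteria group (median −0.77, and −0.62 without the filter). Itgb2, an integrin chain, had an unadjusted p under 0.05 (−0.77, SE 0.257, adjusted p = 0.412). Ptprc, which encodes CD45, read 92.2, 185, 599, 164 and 115 in the cafeteria arrays, and 801, 132, 695, 271 and 838 in the standard arrays. The summed signal of the list ran from 2207 to 5323 on cafeteria arrays and from 2205 to 7658 on standard ones. Cafeteria replicate 3 had the highest sum of its group and standard replicate 2 the lowest of its own, as for Cd74. The mean of the list followed Cd74 with r of 0.984 (permutation p = 2e-05, adjusted 0.00032) and rho of 0.976 (permutation p = 5e-05, adjusted 0.00048), and r was 0.977 without standard replicates 1 and 5. The part of these cells in the class II differences was not tested.

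The mean of B cell markers followed Cd74 too, with r of 0.956 (permutation p = 0.00029, adjusted 0.000773) and rho of 0.842 (permutation p = 0.00393, adjusted 0.00898), and with r of 0.930 without standard replicates 1 and 5. Of 12 in the list 8 were on the array with 1 symbol and 6 were tested, all 6 lower in the cafeteria group (median −0.91), with 1 at an unadjusted p under 0.05. That was Ms4a1, which encodes CD20 (−1.81, SE 0.776; adjusted p = 0.460), at 55.9, 23.1, 473, 16.8 and 37.1 in the cafeteria arrays against 479.7, 54.0, 365, 146 and 509.5 in the standard arrays. The others of lowest p were Cd22 (−0.62), Bank1 (−0.81) and Pou2af1 (−1.01). Of all tested probesets, 48.6% were lower at any p and 4.91% were lower at an unadjusted limma p under 0.05. Ms4a1, Pou2af1 and Cr2 were dim on cafeteria replicates 1, 2, 4 and 5 and on standard replicate 2. They passed the filter on mean signal through their brighter arrays, so the count of lower genes is a description only. Of the markers under the filter, Cd79b, a chain of the B cell receptor, read 5.60 to 333 on cafeteria arrays and 39.0 to 294 on standard ones, and Blk at most 73.7 and 92.0. The sums were 583 to 2712 on cafeteria arrays and 871 to 3319 on standard ones.

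The mean of macrophage and dendritic cell markers had r of 0.923 with Cd74 (permutation p = 0.00023, adjusted 0.000736) and rho of 0.927 (permutation p = 0.00041, adjusted 0.00164), and r of 0.964 without standard replicates 1 and 5. Here cafeteria replicate 3 was the highest of all arrays. Of 20 listed, 19 were on the array and 12 tested, 11 lower and 1 higher in the cafeteria group (median −0.15, and −0.070 without the filter), with 0 at an unadjusted p under 0.05. Csf1r, the receptor that macrophages need to survive, differed by −0.48 (SE 0.261) and Cybb, a subunit of the phagocyte oxidase, by −0.50 (SE 0.365), while Fcer1g (−0.17) and Mpeg1 (−0.19) differed less. The sums were 3966 to 13979.5 on cafeteria arrays, highest in replicate 3, and 4073 to 10195 on standard ones. The dendritic cell genes Flt3 and Itgax were under the filter, at no more than 69.2 and 78.6 in the cafeteria arrays and 19.8 and 72.5 in the standard arrays. T and NK cell markers had 4 of 16 tested, all 4 lower (median −0.55, and −0.46 without the filter). Of these, 2 had an unadjusted p under 0.05 (Cd5 −0.53 and Cd247 −0.49). Lck was at −0.56 and Cd3g at −0.91. Their sums were 1061 to 1385 on cafeteria arrays and 937 to 2673 on standard ones, and cafeteria replicate 3, though the highest of its group, lay far below the highest standard arrays. Their mean had r of 0.755 with Cd74 (permutation p = 0.0143, adjusted 0.0208) but rho of 0.648 (permutation p = 0.0495, adjusted 0.0721), and r was 0.549 without standard replicates 1 and 5, so the relation rests in part on those arrays.

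**Figure D4:**
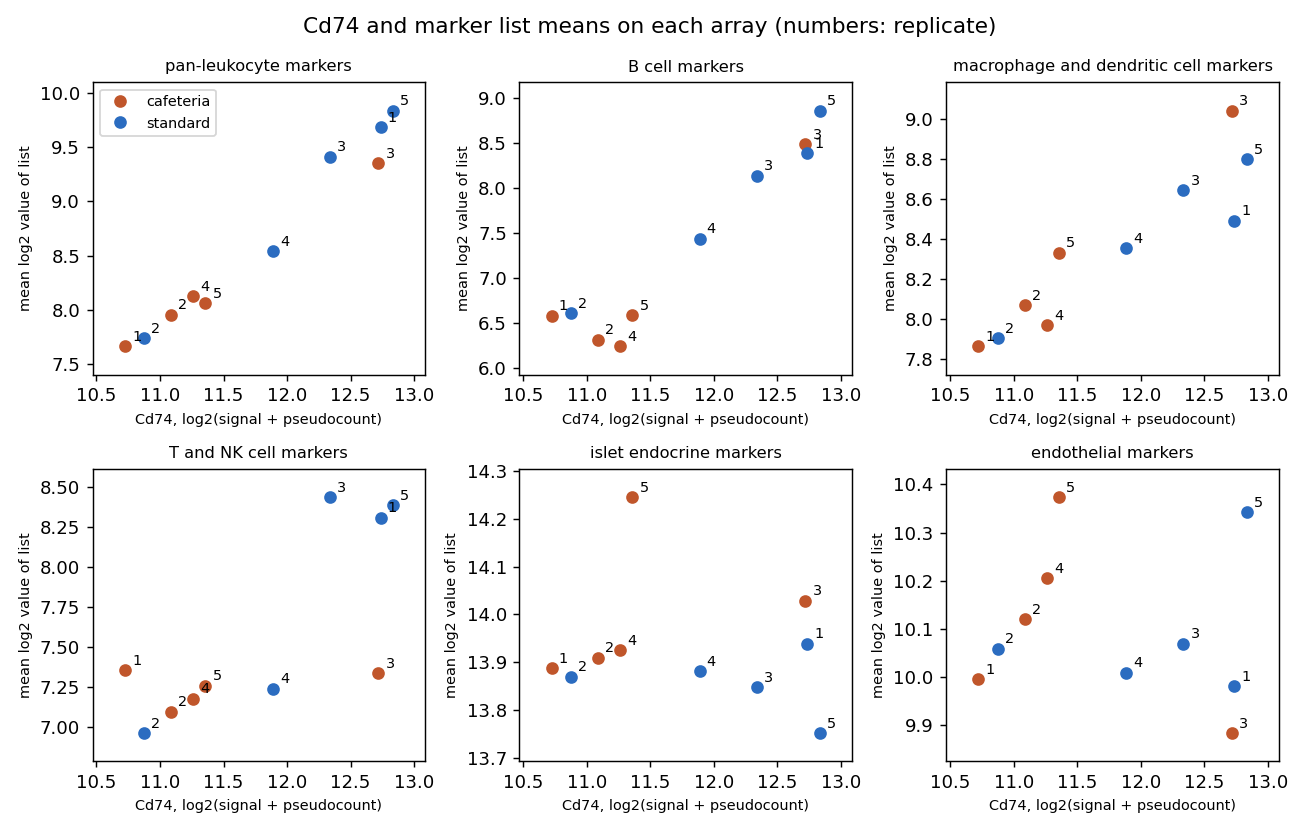
Cd74 on each array (log2 of signal plus the pseudocount of 14.15, horizontal) against the mean log2 value of 6 marker lists (vertical), with cafeteria and standard arrays in separate colours, numbered by replicate. The same 5 arrays are the highest in Cd74 and in the pan-leukocyte, B cell and macrophage and dendritic cell panels. The gap below these 5 is 0.53 in Cd74, 0.41 in the pan-leukocyte mean and 0.83 in the B cell mean, but 0.021 in the macrophage and dendritic cell mean. The islet endocrine and endothelial panels show another order.

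The means of islet endocrine, endothelial and acinar markers had r of −0.16, −0.11 and 0.040 with Cd74 (rho −0.042, −0.055 and 0.321; adjusted permutation p for r 0.808, 0.814 and 0.911). Islet endocrine markers were tested for 13 of 18 genes, 11 higher and 2 lower in the cafeteria group (median 0.20). The unadjusted p was under 0.05 for 5 that were higher and 1 that was lower. With quantile normalization this median fell to 0.027, so its size depends on the normalization. Chga (0.28), Chgb (0.35) and Gcg (0.23), products of secretory granules, and the transcription factor Pdx1 (−0.21) had the lowest p. The sums, 247885 to 321922 on cafeteria arrays and 212620 to 256511 on standard ones, are those of the tissue's own cells, so the labelled tissue carried its defining markers. Endothelial markers were tested for 9 of 10 genes (6 higher, 3 lower, median 0.059), among them Plvap (−0.097), Tek (−0.086), Esam (0.10) and Kdr (0.083), none at an unadjusted p under 0.05. Acinar markers, for digestive enzyme cells, were tested for 11 of 14 genes, 8 lower and 3 higher (median −0.21), 3 lower at an unadjusted p under 0.05. Their sums spread from 4411 to 22663 on cafeteria arrays and from 9565 to 22508 on standard ones, with cafeteria replicate 3 the lowest of all. The acinar genes of lowest p were Pla2g1b (−1.23), Cela1 (−0.78), Amy2a3 (−1.17) and Ctrb1 (−0.50).

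Genes that act around the class II molecules differed little. Among 11 processing and loading partners tested, of 13 listed, 6 were lower and 5 higher (median −0.028), with 1 in each direction at an unadjusted p under 0.05. Sppl2a, the membrane protease that clears the end of the invariant chain, averaged 1767 ± 45.2 in the cafeteria group and 2039.9 ± 189 in the standard group (SD, n = 5 each; log2 difference −0.20, SE 0.079; adjusted p = 0.439). The lysosomal protease gene Ctsd differed by 0.27 (SE 0.118; adjusted p = 0.469), Lamp2 by −0.089 and Ctsb by 0.098. Ifi30, the thiol reductase of antigen processing, was alone in this list among the 10 genes most like the members.

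The regulators of class II transcription that were tested, 13 of 18, split into 9 lower and 4 higher (median −0.043), with 1 lower at an unadjusted p under 0.05. That was Jak1, a kinase of the interferon receptor (−0.24, SE 0.075; adjusted p = 0.407), followed by Creb1 (−0.25), the NF-Y subunit Nfyb (−0.17) and Ifngr2 (0.12). Ifng itself was under the filter. Costimulators and related ligands were mostly dim: 5 of 16 were tested, 4 lower and 1 higher (median −0.44, and −0.43 without the filter). Among them Cd83 had an unadjusted p under 0.05 (−0.37, SE 0.134, adjusted p = 0.422). The other tested genes were the tetraspanins Cd53 (−1.14), Cd37 (−0.89), Cd63 (0.18) and Cd9 (−0.44), so the median is that of Cd9. The costimulators Cd80, Cd86 and Cd40 were under the filter, at no more than 21.8, 81.6 and 53.7 in the cafeteria arrays and 35.1, 65.4 and 91.9 in the standard arrays.

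Class I presentation, which nearly all cells carry out, was set beside class II. Of 13 genes tested, of 14 listed, 4 were lower and 9 higher (median 0.050), with Psmb9, a subunit of the immunoproteasome, lower at an unadjusted p under 0.05 (−0.33, SE 0.093; adjusted p = 0.398). Calr (0.22), Psme2 (0.15) and the peptide transporter Tap2 (0.20) came next. The medians of class I and class II were not tested against each other.

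**Figure D5:**
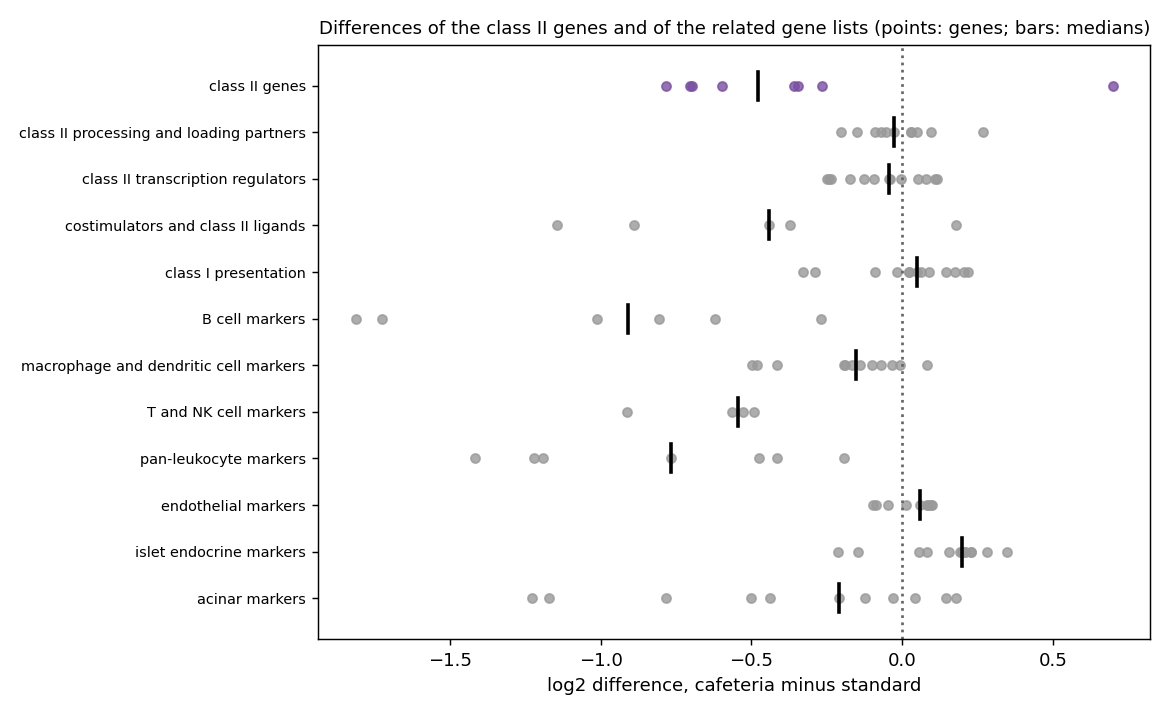
Log2 difference, cafeteria minus standard, of each tested gene (points) with the median (bar) for the 8 class II genes and 11 related lists. The lowest medians are those of B cell (−0.91), pan-leukocyte (−0.77) and T and NK cell markers (−0.55) and the class II genes (−0.48). The costimulator and ligand list (−0.44) was tested only for Cd83 and the tetraspanins Cd53, Cd37, Cd63 and Cd9. Acinar (−0.21) and macrophage and dendritic cell markers (−0.15) come next. Nearer 0 or above it are class II regulators (−0.043), processing partners (−0.028), class I genes (0.050), endothelial (0.059) and islet endocrine markers (0.20).

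A measure of RNA quality also differed between the groups. The log2 ratio of the 3 prime to the 5 prime GAPDH control probesets, which rises in degraded RNA, was 0.0084 ± 0.0877 in the cafeteria group and 0.214 ± 0.131 in the standard group (SD, n = 5 each; exact two-sided permutation p = 0.0238 over 252 divisions). It ran from −0.053 to 0.157 in the cafeteria arrays and from 0.0037, in standard replicate 2, to 0.338 in the standard arrays. Cafeteria replicate 3, high in class II genes, had a ratio of −0.047, and over the 10 arrays the ratio had r of 0.570 with Cd74 (permutation p = 0.0897, adjusted 0.12) and rho of 0.491 (permutation p = 0.157, adjusted 0.209). With this ratio as a covariate the difference of RT1-Da was −0.26 (SE 0.491), that of Cd74 −0.14 (SE 0.582) and that of Ciita −0.11 (SE 0.355). The median over the members was then −0.16. The exact permutation p was 0.0556 to 0.0635 without standard replicate 1, 3, 4 or 5. Because the ratio differed between the diets, its part in the class II differences cannot be told apart from that of the diet, and it was not tested.

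Single arrays set the size of the class II differences, with no change of call. Without standard replicate 2 RT1-Da differed by −1.06 and RT1-Db1 by −0.95, and without cafeteria replicate 3 Cd74 differed by −1.03. Without standard replicate 5 RT1-Da differed by −0.59, RT1-Ba by −0.18 and RT1-DMb by −0.24. Over all settings the lowest adjusted p of a member was 0.333, for RT1-Da.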

How the data were processed

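Islet RNA was hybridised to 1-colour Affymetrix Rat Genome 230 2.0 arrays, 5 per diet. The deposited values are linear intensity values that the authors summarised with MAS5, per the submitters' processing notes (version not given in the sources used here). The trimmed mean (2% off each end) was 500.1 to 500.2 on every array. Of 31099 probesets, 57 are controls. Median signals ran from 151 to 173, and the number of arrays limits the precision.

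From these, log2(signal + 14.15) was computed, the pseudocount being the 10th percentile of all values, so fold changes of dim genes are understated. Probesets above the 40th percentile of mean log2 value were tested with limma 3.58.1 (lmFit, eBayes; R 4.3.3) and adjusted by Benjamini-Hochberg over all 18625, with a threshold of 0.05. On simulated data with 200 of 18625 probesets changed, 25 of 67 changes of 0.5, 61 of 67 of 1 and 65 of 66 of 2 on the log2 scale were found, with 13 false calls. The changed probesets were drawn at random from all tested and given independent noise. The shares found therefore do not describe the members, whose standard errors ran from 0.137 (RT1-DMa) to 1.21 (RT1-Bb, 1371065_at). A gene is named from its brightest probeset.

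Named are all members, up to 4 genes of lowest p in each of 11 lists, and the 10 genes most correlated with the members. Genes named beyond that (Ptprc, Cd79b, Blk, Flt3, Itgax, Cd80, Cd86, Cd40, Cd9 and Ifng) were chosen after their values were seen. Members and lists were chosen with earlier results of these data known. Correlations with Cd74 over the 10 arrays were tested by permutation with 100000 resamples. Replicate numbers were not used to pair the samples, which the design text calls independent. Alternatives were other pseudocounts, filters and normalizations, variance models, array weights, a replicate block, the GAPDH ratio as a covariate, averaged probesets per gene and omission of each array in turn. No genome build is named in the files, and gene symbols came from the platform annotation.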

Additional observations from a re-analysis of the deposited data

Results flagged for a closer look

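Values are log2. Dixon's test was applied to 156 sets, each the 5 arrays of a diet for a member, a named gene, a list mean or the GAPDH ratio. It marked 18 of them for an array that lay far from its group, where chance alone would mark 7.8, about 1 in 20. Genes that follow each other over the arrays are not independent sets. The 10 genes most like the members were also picked for that likeness, and in the members' mean cafeteria replicate 3 was the highest cafeteria array. Their marks follow in part from that choice, so the 2 counts cannot serve as a test. Cafeteria replicate 3 accounts for most of the marks, as the highest cafeteria array. Among the members it stood apart in the brightest RT1-Ba probeset, at 10.33 (others 9.03 to 9.40). Among genes most like the members it stood apart in Pou2af1 at 8.16 (others 5.87 to 5.99), Cr2 at 9.43 (4.87 to 5.93), Cxcl13 at 9.95 (5.55 to 6.44), Ltb at 8.79 (6.05 to 6.50), Dnase1l3 at 9.82 (6.01 to 6.67), Cd37 at 8.04 (6.0 to 6.58) and Ifi30 at 11.02 (10.32 to 10.44). It was also apart in Rac2 at 10.16 (7.27 to 7.91), in the B cell mean at 8.49 (6.25 to 6.59) and in the pan-leukocyte mean at 9.35 (7.66 to 8.12).

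In other cafeteria arrays, replicate 5 was highest in Ctsb at 13.65 (13.36 to 13.42) and Chgb at 14.36 (13.52 to 13.70), and replicate 4 in Cd5 at 7.09 (6.67 to 6.79). In the standard arrays, replicate 5 was lowest in Nfyb at 9.92 (10.20 to 10.27) and Gcg at 14.59 (14.93 to 15.01) and highest in the endothelial mean at 10.34 (9.98 to 10.07), and replicate 4 was highest in Tap2 at 7.66 (7.20 to 7.28).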

How the results depend on the processing

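Of 167 values of member genes under other settings, 165 kept their direction and stayed short of the threshold, which says little since no member passed with all arrays. RT1-Bb turned, to −0.090 with the GAPDH ratio as a covariate and to −0.69 as the sum of its probesets, a setting chosen after seeing the data. With the replicate block, 0 probesets passed. The difference of RT1-Da stayed at −0.78, which a block cannot change in this balanced design. Its SE went from 0.361 to 0.266 (limma adjusted p = 0.346 with the block). Deviations of same-numbered arrays correlated by −0.0017 to 0.296. No differently numbered arrays were compared, so this does not show whether the numbers pair the arrays. Over all 10 arrays limma called 0 probesets (1941 at an unadjusted p under 0.05); this count ran from 0 to 1 when an array was left out, the 1 being Emp1 without standard replicate 2. The median over the members ran from −0.69 to −0.38 with an array left out, and from −0.70 (70th percentile filter, which drops RT1-DMa, Ciita and RT1-Bb, the member with a positive difference) to −0.16 (GAPDH covariate) under other settings. The GAPDH difference ran from −0.26 to −0.17 with an array left out. Without detection calls it is not known which dim values, such as those of Ciita, lie above background.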
